A study of Mus musculus with 4 samples.

Results

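The Tns1 domain is a 320 kb interval of mouse chromosome 1, chr1:73926401-74246400 in build mm9. The whole of Tns1 and of its neighbours Rufy4, Cxcr2 and Cxcr1 lies inside it. In contact maps with bins of 6.4 kb it holds 50 bins and 1275 bin pairs, of 558 bins and 155961 bin pairs of the captured stretch of that chromosome, chr1:72083201-75654400, and of 293610 pairs that carry a value in the series. A pair belongs to the domain when both of its bins lie inside these coordinates. The stripe anchor is 3 adjacent bins beside the 5′ edge (the edge with the lower coordinate), chr1:73932801-73952000, and the stripe is made of the contacts of those bins with the rest of the domain. The members were thus chosen by position, and the position itself was chosen by the contact values of these same libraries: high contact inside, a stripe, and low contact across the edges. All contact levels are therefore given as a description, and no test was made.

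The maps came from tiled Capture-C, a chromosome conformation assay in which cross-linked chromatin is cut with MboI, ligated, and enriched with tiled probes for all contacts of a chosen region. There were 4 libraries, with 1 in each group, all from E14 mouse embryonic stem cells grown in serum and LIF with MEK and GSK3 inhibitors. Each line was 1 clone, and all of them carried TetO and LacO operator arrays on chromosome 15 together with TetR-tdTomato and LacI-eGFP, a deletion of endogenous CTCF sites on that chromosome, and the cohesin subunit RAD21 fused to HaloTag-FKBP so that it can be degraded with dTAG-13. The line 1B1 carried 3xCTCF cassettes beside the arrays, 1A2 was made from 1B1 by removing these cassettes, and 1F4 had no such cassettes and kept the promoters of the resistance genes, while the fourth library was 1B1 after 500 nM dTAG-13 for 2 h, called cohesin degraded here. The targeted differences between 1A2, 1F4 and 1B1 lie on chromosome 15. TetR-tdTomato and LacI-eGFP were brought in by piggyBac transposition, which the study also used for random integrations. The methods describe clones with and without the resistance genes as sorted separately after that step. Insertion sites of these constructs may therefore differ between 1F4 and the other lines. On chromosome 1 the untreated lines are 3 clones of one background, and the only treatment that was meant to act there was the loss of RAD21. With 1 library a group, a difference between libraries has no replicate check and may be that of the library or the clone.

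Cohesin is a ring complex that is thought to extrude loops of chromatin until it is halted, most often at the protein CTCF bound with its motif pointing into the loop. An anchor that halts extrusion on one side is seen in a contact map as a stripe, a line of raised contacts between the anchor and all of the sequence in front of it, and a pair of anchors with motifs that face each other can frame a domain. Domains of this type keep enhancers and promoters of the same domain in closer contact with one another than with sequence outside.

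Tns1 (ENSMUSG00000055322.7), which encodes tensin 1, an adaptor that links integrins at focal adhesions to actin, filled most of the domain. It lies on the minus strand at chr1:73956805-74171021, 214.2 kb, with its 3′ end 4.804 kb past the anchor and its transcription start far from it. The start is in the bin chr1:74169601-74176000, which is 230.4 kb from the middle anchor bin and also holds the start of Rufy4, a RUN and FYVE domain protein of the endosomal and autophagy system. Rufy4 (chr1:74172115-74194797, plus strand) starts 1094 bases from the start of Tns1 and is transcribed away from it. Shorter annotated Tns1 transcripts start inside the gene, at positions 74045042 and 73975087. The 3′ part of the domain holds the neutrophil chemokine receptor genes Cxcr2 (chr1:74200563-74207812, plus strand) and Cxcr1 (chr1:74238359-74241205, minus strand), the latter within the last bins of the domain. On the other side of the anchor the next protein-coding gene is Tnp1, a spermatid chromatin protein, 863928 bases from the domain, and Arpc2, a subunit of the actin-nucleating Arp2/3 complex, is 36671 bases from the 3′ edge. Expression of these genes was not measured in the files used here.

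The genome sequence of the domain was searched on both strands for a core of the CTCF motif, 12 bases that read CC, 3 bases of any kind, AG, 2 bases of any kind and GGC. A stricter form was also searched, in which the 2 free bases after AG are GG, so that each of its matches is a match of the core as well. The core is common and was found in 361 of the 558 bins of the region (64.7%) and in 41 of the 50 domain bins, with 40 matches on the plus and 35 on the minus strand of the domain. The strict form was in 31 of the 558 bins (5.56%). Its matches within Tns1 and at the Tns1 start follow, since the start is one end of a strong contact described below, with the motif in capitals and 9 bases on each side, 5′ to 3′ on the named strand.
Tns1 untranslated region, plus strand, chr1:73957038-73957067: atgggtttcCCAGCAGGGGGCctgggagac
Tns1 intron, plus strand, chr1:74069377-74069406: tctacaaacCCTGCAGGGGGCtggctgttc
Upstream of Tns1, intergenic, minus strand, chr1:74172047-74172076: tcagcccagCCTGAAGGGGGCtggaccaac
The match upstream of Tns1 lies 1035 bases from the Tns1 start and 48 bases before the Rufy4 start, and its motif reads back toward the anchor. The 2 matches within Tns1 read the other way, away from the anchor. A match of letters is not a bound site, and CTCF binding was not measured in these libraries.

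Core matches on the minus strand, which read toward the anchor, are shown for the other places with the highest stripe contact, all of those in the first and second peak and at the 3′ edge, again with the motif in capitals.
First peak of the stripe, Tns1, chr1:74029312-74029341: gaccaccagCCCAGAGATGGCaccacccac
First peak of the stripe, Tns1, chr1:74041122-74041151: tttgggagcCCTATAGCTGGCtagagttac
First peak of the stripe, Tns1, chr1:74043327-74043356: cagaagtggCCCTCAGGAGGCcaccatcaa
Second peak of the stripe, Tns1, chr1:74119096-74119125: tcatgctacCCAGGAGGAGGCggggaggga
Second peak of the stripe, Tns1, chr1:74129598-74129627: tcagtatgaCCACCAGGAGGCgctgctgac
3′ edge, chr1:74242351-74242380: atggtgcctCCCACAGTGGGCtgggccctc
3′ edge, chr1:74242726-74242755: cctcagaagCCAGCAGAGGGCatcagattt
The first peak held 3 core matches and the second peak 2, all on the minus strand. The Tns1 start bin and the 3′ edge each held 2 on either strand, not all of which are shown, and the valleys between the peaks, as bounded further on, held 11 plus and 8 minus, 5 plus and 2 minus, and 5 plus and 2 minus matches. With so common a sequence, these counts describe the windows and no more.

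The captured chromosome 1 region held 1648754 reads in 1A2, 2102384 in 1F4, 1677423 in 1B1, and 1848616 after cohesin degradation. Of these, 6.89%, 7.19%, 6.75% and 7.10%, in the same order, joined bins of the domain (113615, 151260, 113190 and 131308 reads). The domain was read as deeply as its surroundings, with a median of 5150, 6512, 5379 and 5638 reads a bin against 4822, 6079, 4998 and 5288 over the region. The anchor was not. Its first bin had 227, 278 and 242 reads in 1A2, 1F4 and 1B1, fewer than any other bin of the region, and had no balanced value in the degraded library. The second anchor bin had 1170, 1447, 1263 and 981 reads and the third 3983, 5365, 4410 and 3419. Matrix balancing scaled up the contacts of the second bin 4.40-fold, 4.56-fold, 4.13-fold and 5.35-fold relative to a typical bin, and those of the third 1.18-fold, 1.10-fold, 1.11-fold and 1.34-fold. Most reads of the stripe thus come from the third bin, although a mean over several anchor bins weighs each bin alike. Levels of the anchor that are set against the degraded library use the second and the third bin only, while means over the whole domain use all bins balanced in each library.

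Contact levels are given as observed over expected values, the balanced value divided by the mean of all pairs of the region at the same genomic separation in the same library, so that 1 is the typical level. Errors are counting errors of the reads behind a value, and cover nothing else. Over pairs at least 2 bins apart, the mean observed over expected value inside the domain came to 1.53 ± 0.017 in 1A2, 1.58 ± 0.014 in 1F4, 1.46 ± 0.013 in 1B1, and 1.20 ± 0.010 after cohesin degradation. The untreated lines thus lay close together and the degraded library below all of them, though still above 1. Pairs that cross an edge had 0.734, 0.701, 0.733 and 0.836, where the degraded library was the highest. The ratio of inside to across was 1.06, 1.17, 0.99 and 0.53 on the log2 scale. The log2 difference between the degraded library and 1B1 was -0.47 ± 0.026, and -0.43 ± 0.024 over the bins balanced in all 4 libraries, which leave out the first anchor bin. It was 0.036 when balanced values were not divided by the expected value, so that the direction holds for contact at matched separations only. Measured the same way at 408 placements of an interval of this size along the region, which overlap one another, no placement had a higher ratio than the domain in 1A2, 1F4 or 1B1, and 7 did in the degraded library. The domain was chosen in these same maps for high contact inside and low contact across its edges, so nothing is read from these ranks.

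**Figure D1:**
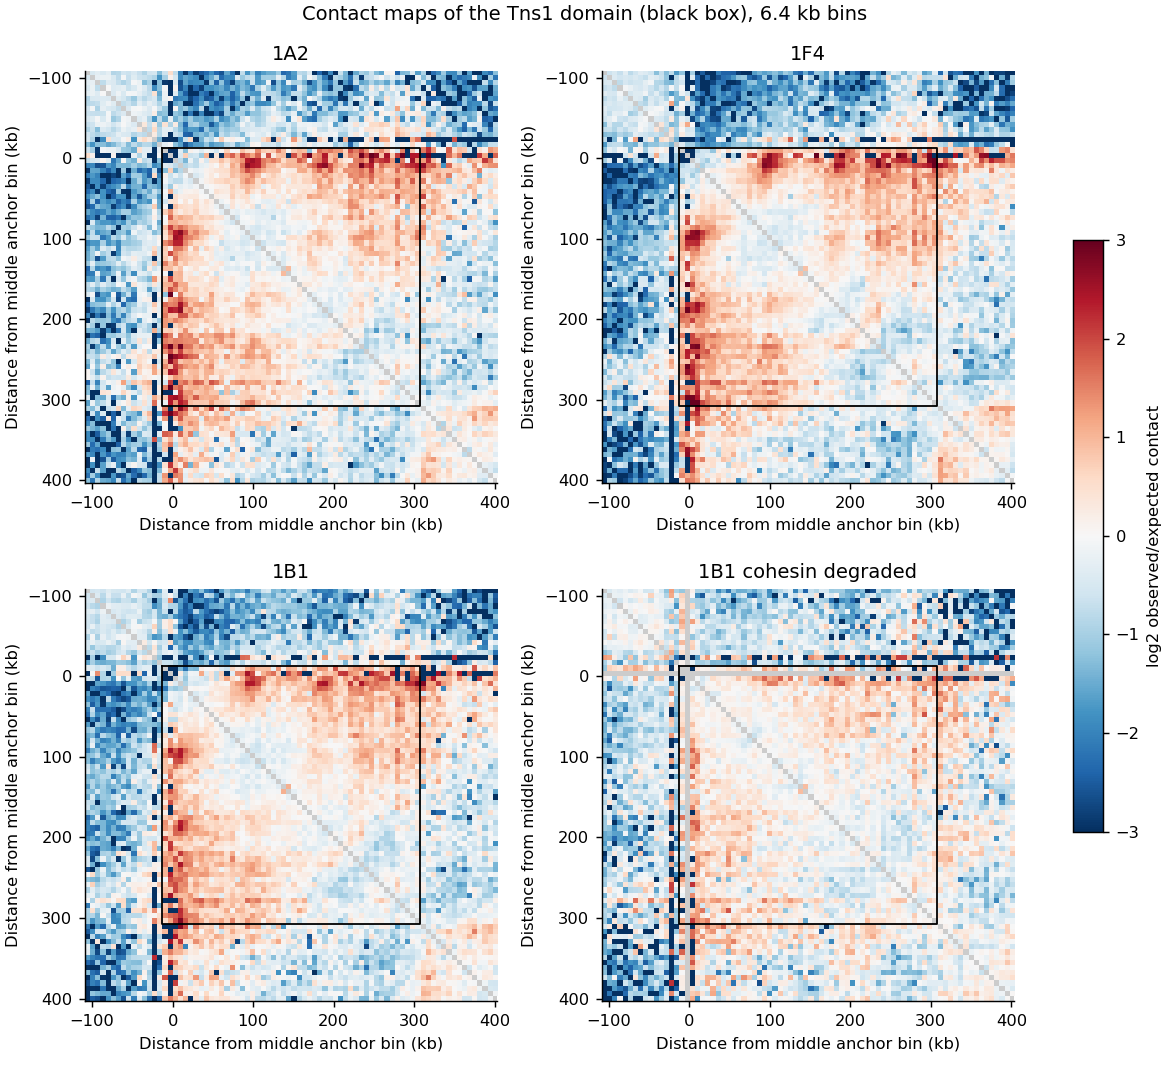
Observed over expected contacts (log2 colour scale) in and around the domain in the 4 libraries, with both axes in kb from the middle anchor bin, the domain boxed and pairs without a value in grey. The stripe shows as a dark line along the left and upper side of the box in 1A2, 1F4 and 1B1, and it is fainter in the cohesin degraded library, where the first anchor bin is empty.

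The raised contact was a matter of long separations. At 12.8 to 25.6 kb the domain was at the level of the region, with observed over expected values of 0.951, 0.971, 0.955 and 1.02 in 1A2, 1F4, 1B1 and the degraded library. At 64 to 121.6 kb it had 1.37, 1.41, 1.33 and 1.16, and at 224 to 313.6 kb, close to its full length, 2.68, 2.74, 2.30 and 1.501. Over these ranges the excess grew with separation in every library, and least in the degraded one. At 32 to 57.6 kb the domain had 1.07, 1.06, 1.03 and 1.01, so that the degraded library did not rise over that first step. On the balanced scale, without division by the expected value, contacts inside the domain at 224 to 313.6 kb were lower after degradation than in 1B1 by a log2 ratio of -1.32 ± 0.081, against -0.70 in the rest of the region. At 12.8 to 25.6 kb they were higher, with 0.34 ± 0.018 in the domain and 0.25 in the rest. Contacts of the whole region were thus lower at long and higher at short separations after degradation, and those of the domain more so. The balanced maps of all libraries have nearly the same sum. These values are therefore relative, and a higher value at short separations need not be a gain in contact.

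The 2 edges differed. Contacts across the 5′ edge, next to the anchor, were at 0.497 ± 0.0097, 0.439 ± 0.0089, 0.475 ± 0.0088 and 0.685 ± 0.012 of the expected level in 1A2, 1F4, 1B1 and the degraded library. Contacts across the 3′ edge were at 0.971 ± 0.0097, 0.964 ± 0.0086, 0.992 ± 0.0091 and 0.981 ± 0.011. Crossing contacts were thus strongly depleted at the 5′ edge and at most slightly at the 3′ edge in this measure. The depletion at the 5′ edge was weaker by 0.53 ± 0.037 (log2) after degradation than in 1B1. In the insulation score, the log2 of the mean contact between the 20 bins before and the 20 bins after a position, relative to the regional mean, low values mark boundaries. Each edge was scored at the bin with the lowest mean over the untreated lines, within 3 bins of the limit of the domain. This choice favours a higher score in the degraded library. The 5′ edge scored -1.29, -1.46, -1.26 and -0.68, and at most 0.579% of the 518 scored bins were lower in any library. In 1F4 it was the lowest bin of all. The 3′ edge was shallower, with -0.44, -0.45, -0.40 and -0.03. From 1B1 to the degraded library the score was higher by 0.58 ± 0.072 at the 5′ edge and by 0.37 ± 0.030 at the 3′ edge, which was at the percentiles 97.1 and 92.3 of that difference over the region. The edges were chosen for low crossing contact in these same maps, so nothing is read from their ranks over the region. The 5′ edge thus kept a low score after degradation, while the scored bin of the 3′ edge was close to the mean of the region. Within 3 bins of the 3′ limit the degraded library was lowest elsewhere, at chr1:74252801-74259200, with -0.12.

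**Figure D2:**
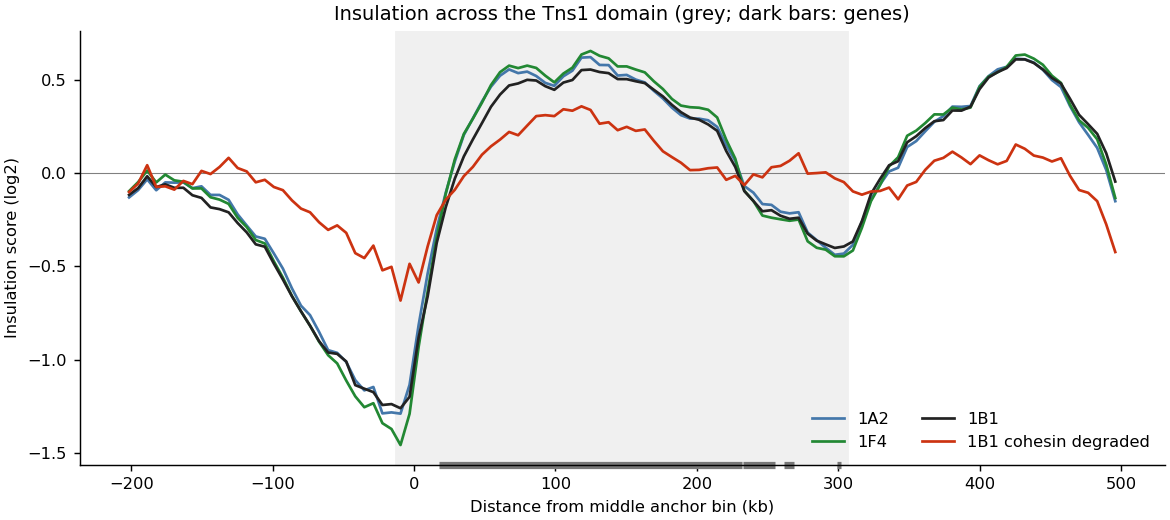
Insulation score (log2, square of 20 bins) against distance from the middle anchor bin in kb, with 1 line for each library, the domain in grey and its genes as dark bars. The lowest point is at the 5′ edge, -1.26 in 1B1 and -0.68 in the cohesin degraded library.

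Inside the domain the score of the untreated lines was highest near the middle, in the bin that begins at position 74060801, with 0.62, 0.65 and 0.55. The degraded library had 0.34 there and 0.36 in the bin before. The bin of the Tns1 and Rufy4 starts scored -0.07, -0.09, -0.10 and -0.06, so that the bidirectional promoter bin was not a boundary by this score in any of the 4 libraries. Its score differed by 0.03 between the degraded library and 1B1.

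The stripe was one-directional. Over all bins of the domain at least 5 bins away, the second and the third anchor bin had mean observed over expected values of 2.89 ± 0.080, 3.21 ± 0.080, 2.55 ± 0.069 and 1.85 ± 0.078 in 1A2, 1F4, 1B1 and the degraded library, from 2627, 3578, 2684 and 1291 reads. Over the mirrored distances on the other side, toward Tnp1, the same bins had 0.478 ± 0.036, 0.435 ± 0.033, 0.444 ± 0.033 and 0.852 ± 0.056. Contact toward the domain was 6.04-fold, 7.39-fold, 5.74-fold and 2.17-fold that in the other direction. After degradation the anchor bins had less contact toward the domain (log2 ratio to 1B1 of -0.46 ± 0.072) and more away from it (0.94 ± 0.14), so that the log2 asymmetry was 1.12 against 2.52, a difference of -1.40 ± 0.16, and still above 0. The larger part of this difference lay on the side outside the domain.

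Counted as reads rather than as balanced values, which leaves the scaling of the low anchor bins aside, the third anchor bin sent 63.4% of its reads at 2 or more bins into the domain in 1A2 (95% Wilson interval 61.8 to 64.9%), 65.9% in 1F4 (64.5 to 67.2%) and 59.9% in 1B1 (58.3 to 61.4%). In the degraded library it sent 48.5% (46.7 to 50.3%). These shares rest on 3660, 4891, 4068 and 2904 reads, and the interval of the degraded library lay below all of the others. Among the untreated lines, the interval of 1B1 also lay below those of 1A2 and 1F4. The share on the 5′ side of the domain was 19.7%, 16.3%, 20.5% and 36.9%, highest in the degraded library. The second anchor bin gave 50.5%, 52.8%, 46.2% and 38.4% into the domain. Over all bins of the domain together the share that stayed inside was 40.6%, 44.0%, 38.2% and 40.7%, so that the degraded library stood below 1B1 for the anchor bins and not for the domain as a whole. A read between 2 domain bins enters this last share as a single count, while the share of a bin counts every read of that bin. The levels of an anchor bin and of the whole domain can therefore not be set against each other, only libraries within each.

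The anchor was compared with the rows just downstream of it, 4 to 8 bins past the middle anchor bin, which lie inside the domain at nearly the same distance from its far parts. Over 35 target bins reachable by both, the second and the third anchor bin had 3.17 ± 0.094, 3.61 ± 0.095, 2.79 ± 0.081 and 1.95 ± 0.092 in 1A2, 1F4, 1B1 and the degraded library, and the downstream rows 1.68 ± 0.026, 1.68 ± 0.023, 1.64 ± 0.024 and 1.35 ± 0.026. The stripe thus stood 1.89-fold, 2.15-fold, 1.70-fold and 1.45-fold above sequence a few bins away. Of the 35 target bins, the anchor had the higher value at 33, 33, 32 and 25. The log2 contrast was -0.24 ± 0.087 in the degraded library relative to 1B1. Its size depended on the setting, with -0.53 from reads before balancing, -0.56 against rows outside the domain and -0.57 with 1F4 as the reference, but only -0.14 ± 0.15 with the middle anchor bin alone. At 499 positions of the region measured in this way, 2 positions had a higher contrast in 1A2, none in 1F4, 3 in 1B1, and 8 after cohesin degradation, and the difference of -0.24 was at the percentile 11.6. The stripe was chosen from these same maps, so nothing is read from these ranks. The downstream rows were lower too after degradation, and so were the bins directly beside the anchor. The bin before it had 1.98, 2.02, 1.88 and 1.31, and the bin after it 2.39, 2.41, 2.31 and 1.42.

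**Figure D3:**
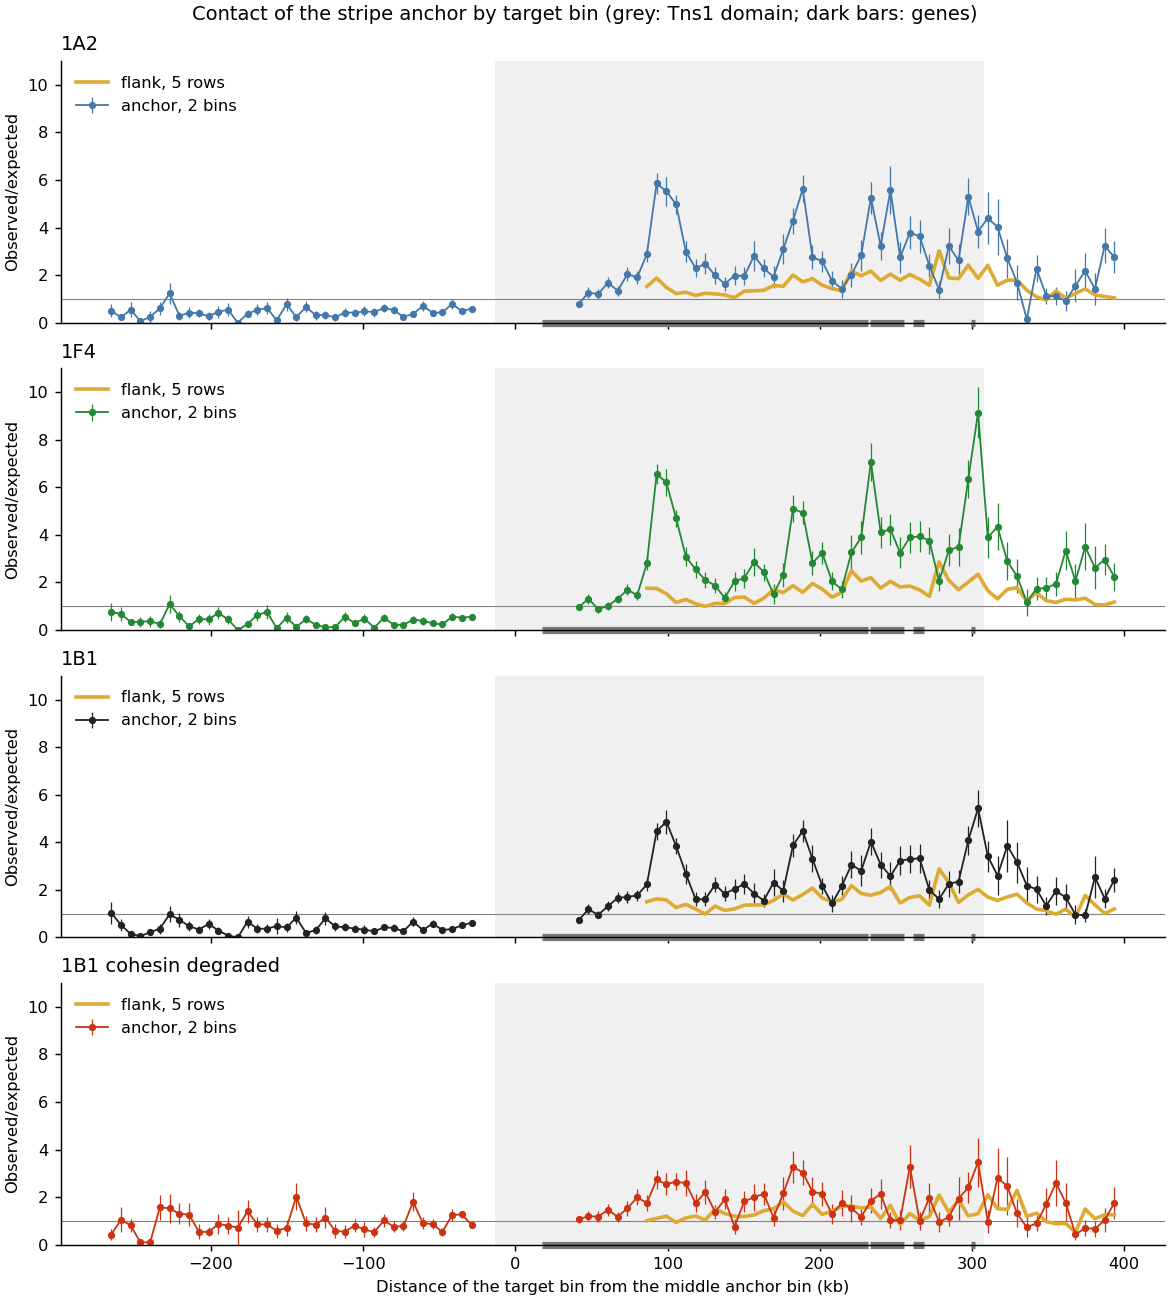
Observed over expected contact of the second and the third anchor bin (points with counting errors) and of the 5 downstream rows (line, labelled flank) with each target bin, against distance from the middle anchor bin in kb, 1 panel for each library, with the domain in grey and genes as dark bars. The anchor stands above the downstream rows at 33, 33, 32 and 25 of the 35 targets shared by both in 1A2, 1F4, 1B1 and the cohesin degraded library.

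Each of the 3 anchor bins carried the stripe where it could be read. The first had mean values of 3.48, 3.21 and 2.45 in 1A2, 1F4 and 1B1, from only 80, 101 and 68 reads. The second had 2.95, 3.55, 2.50 and 1.87, and the third 3.39, 3.67, 3.08 and 2.03 with 1765, 2459, 1803 and 717 reads. The order 1F4, 1A2, 1B1, degraded held for the second and the third bin, while in the first bin 1A2 was above 1F4 within the counting error.

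Along the stripe the contact was uneven, with 4 places of high contact separated by lower stretches. These places were picked after the values had been seen. The first, chr1:74028801-74048000 in the introns of Tns1 with the transcript start at position 74045042, had 5.45 ± 0.29 in 1A2, 5.82 ± 0.27 in 1F4, 4.39 ± 0.23 in 1B1, and 2.65 ± 0.23 after cohesin degradation, from 630, 870, 599 and 221 reads. The rows downstream of the anchor had 1.53, 1.48, 1.48 and 1.08 with the same bins. The second place, chr1:74118401-74131200, also inside Tns1, had 4.96, 5.02, 4.17 and 3.16. The third was the Tns1 start bin, and the fourth the 3′ edge at Cxcr1, chr1:74233601-74246400, with 4.57, 7.75, 4.75 and 2.94. Valleys were taken as the middle of the stretches between them, without the bins on the slopes, at 115.2 to 166.4 kb, 198.4 to 217.6 kb and 249.6 to 288 kb from the middle anchor bin. They had 2.15, 2.10, 1.91 and 1.68, then 1.95, 2.57, 2.20 and 1.68, then 2.83, 3.39, 2.58 and 1.62. Every peak was thus above the valleys next to it in all 4 libraries, which follows in part from how both were picked. At the Tns1 start in the degraded library this was within the counting error, with 1.85 ± 0.53 against 1.68 ± 0.26 and 1.62 ± 0.23. Bins left out of the valleys could be as high as a peak, such as the Rufy4 bin at 243.2 kb with 5.58 in 1A2.

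All 4 places had lower contact with the anchor in the degraded library than in 1B1. The log2 ratio was -0.73 ± 0.15 at the first, -0.40 ± 0.23 at the second, -1.12 ± 0.46 at the Tns1 start and -0.69 ± 0.34 at the 3′ edge. The second ratio was less than 2 counting errors from 0. The errors of the 4 ratios are wide enough that the order among them cannot be read. The log2 ratio of 1B1 to 1F4, both untreated, was -0.41 ± 0.10, -0.27 ± 0.16, -0.81 ± 0.26 and -0.71 ± 0.19 in the same order. At the 3′ edge these clones thus differed as much as the degraded library and 1B1.

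The single bins with the highest mean contact to the anchor over the untreated lines lay in these same places. The highest was chr1:74240001-74246400 at Cxcr1, 300.8 kb away, with 3.84, 9.15, 5.42 and 3.47 in 1A2, 1F4, 1B1 and the degraded library, from 46, 116, 74 and 17 reads. Its neighbour chr1:74233601-74240000 had 5.31, 6.36, 4.08 and 2.41. The bin chr1:74028801-74035200 of Tns1, at 89.6 kb, had 5.85, 6.56, 4.46 and 2.74, and the next one, at 96 kb, 5.53, 6.21, 4.86 and 2.54. The bin of the Tns1 and Rufy4 starts had 5.26 ± 0.68, 7.07 ± 0.81, 4.03 ± 0.57 and 1.85 ± 0.53, from 88, 126, 73 and 18 reads. In each of these 5 bins the degraded library was lowest, and 1F4 was highest. The bins were picked for their mean over the untreated lines, which favours such an order, so that nothing is read from it.

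The largest differences between the degraded library and 1B1 were at other bins, with few reads. The Cxcr2 bin chr1:74201601-74208000, had 3.63, 3.94, 3.32 and 0.999, a log2 ratio of -1.73 ± 0.61 from 46 and 10 reads. A Rufy4 bin, chr1:74188801-74195200, had 2.75, 3.25, 3.22 and 1.04 (log2 ratio -1.63 ± 0.65). A second Rufy4 bin, chr1:74182401-74188800, had 5.58, 4.24, 2.57 and 1.03 (log2 ratio -1.33 ± 0.59), with the highest value in 1A2. In Tns1 the bin chr1:74080001-74086400 had 1.98, 2.05, 2.04 and 0.764 (log2 ratio -1.42 ± 0.65), and chr1:74163201-74169600 had 2.84, 3.90, 2.80 and 1.17 (log2 ratio -1.26 ± 0.54). At these bins, picked as the largest differences, the degraded library was near or below the typical level of the region while all untreated lines were clearly above it. Over all 42 target bins of the domain, the degraded library was lower than 1B1 at 31 and higher at 11, with a median log2 ratio of -0.32. It was lower by more than 2 counting errors at 9 and higher by that much at none. At 30 of the 42 it was below all 3 untreated lines. Values above 3 were reached at 14 bins in 1A2, 20 in 1F4, 14 in 1B1, and 4 after cohesin degradation, while values above 1 were found at 41, 40, 40 and 39, not all of them the same bins.

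The 3′ limit of the domain was not the end of the stripe. Just inside it, the last bin is the one at Cxcr1 given above. Just outside it, chr1:74246401-74252800 had 4.40, 3.89, 3.41 and 0.970 with the second and the third anchor bin, from 23, 29, 27 and 4 reads. The next bin, chr1:74252801-74259200, had 4.02, 4.35, 2.60 and 2.81, and the one after it 2.71, 2.89, 3.85 and 2.46, from 21 reads or fewer in each library but for 31 in 1F4 at the former. Contact with the anchor thus stayed above the typical level for some bins past the edge in the untreated lines, and the degraded library, with 4, 8 and 6 reads, was not below 1B1 in every bin.

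The contact of the anchor with the start of Tns1 spans the whole gene, over 230.4 kb from the middle anchor bin to the start bin. In a window of 3 bins around the start, the second and the third anchor bin had 3.77 ± 0.37 in 1A2, 5.03 ± 0.41 in 1F4, 3.30 ± 0.34 in 1B1, and 1.72 ± 0.30 after cohesin degradation, from 163, 245, 147 and 48 reads. The downstream rows had 1.97, 2.01, 1.83 and 1.41 with the same window. The log2 ratio of the degraded library to 1B1 was -0.94 ± 0.29 (-0.60 ± 0.26 with the third anchor bin alone), and it was at the percentile 2.41 of the same measure over 497 positions of the region. Relative to the downstream rows the difference was -0.56 ± 0.32. At the 3′ edge the same kind of window had 3.92 ± 0.41, 6.33 ± 0.52, 3.95 ± 0.36 and 2.60 ± 0.51. The log2 ratio to 1B1 after degradation was -0.60 ± 0.31 (-1.13 ± 0.29 with the third anchor bin alone), at the percentile 9.45. Relative to the downstream rows it was -0.34 ± 0.35. Since the stripe was chosen for its contact in these same maps, nothing is read from the percentiles of either window. Between untreated clones, the log2 ratio of 1B1 to 1F4 was -0.61 ± 0.19 at the Tns1 start window and -0.68 ± 0.18 at the 3′ edge window.

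**Figure D4:**
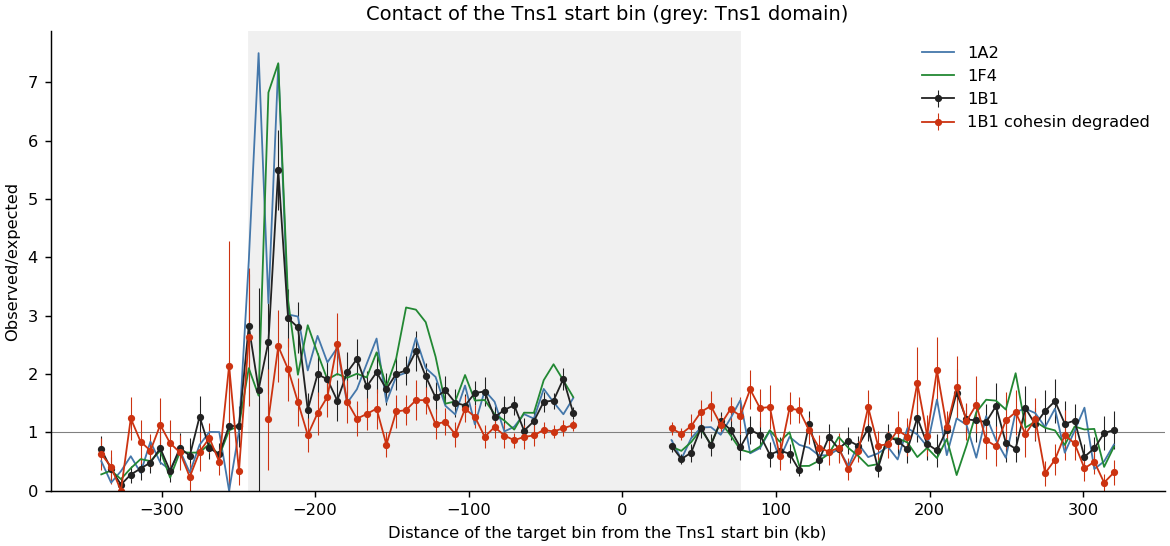
Observed over expected contact of the Tns1 start bin with bins on both sides, against their distance from it in kb, with points and counting errors for 1B1 and the cohesin degraded library, lines for 1A2 and 1F4, and the domain in grey. The peak near the left edge of the domain is the contact with the anchor, which at the third anchor bin is 5.50 in 1B1 and 2.47 after degradation.

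Seen from the Tns1 start bin, the third anchor bin alone had 7.31 ± 0.82 in 1A2, 7.32 ± 0.72 in 1F4, 5.50 ± 0.68 in 1B1, and 2.47 ± 0.62 after cohesin degradation, from 79, 104, 65 and 16 reads. The start bin also met the first peak of the stripe, and with its middle bin had 2.62 ± 0.39, 3.10 ± 0.38, 2.39 ± 0.34 and 1.55 ± 0.34. With the bins of the Tns1 gene itself, anchor left out, the start bin had 1.84 ± 0.054, 2.00 ± 0.050, 1.77 ± 0.051 and 1.27 ± 0.051, and at the mirrored distances on the other side 0.849, 0.734, 0.848 and 1.15. The mirrored bins, chr1:74201601-74393600, begin in Cxcr2, and most of them lie past the 3′ edge of the domain. The ratio of the gene side to the other side was 2.17, 2.72, 2.09 and 1.10. In the untreated lines contact of the start bin was thus higher toward its own gene than toward bins that are mostly outside the domain. After degradation the log2 of this ratio was 0.13 ± 0.091, and it differed from that of 1B1 by -0.93 ± 0.12. In shares of reads the same bin differed little, with 61.5%, 64.9%, 57.7% and 58.3% of its reads at 2 or more bins inside the domain.

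The places of high stripe contact also met each other, to different degrees. The first peak and the Tns1 start had 2.25, 3.04, 2.14 and 1.49 in 1A2, 1F4, 1B1 and the degraded library, and the first peak and the 3′ edge 2.19, 2.03, 2.04 and 1.28. The second peak and the Tns1 start had 1.63, 2.03, 1.53 and 1.03. The first and the second peak had 1.83, 1.83, 1.51 and 1.21. These 4 pairs were lowest in the degraded library. So was the pair given next, of the second peak and the 3′ edge, though within the counting error of 1A2. The second peak and the 3′ edge had 0.935, 0.993, 1.06 and 0.886, and the Tns1 start and the 3′ edge 1.10, 1.06, 1.12 and 1.27, about the typical level of the region in the untreated lines. In the untreated lines the 3′ edge thus had raised contact with the anchor and the first peak, but not with the nearer Tns1 start. In the degraded library its contacts with the first peak and with the Tns1 start were level within the counting errors.

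**Figure D5:**
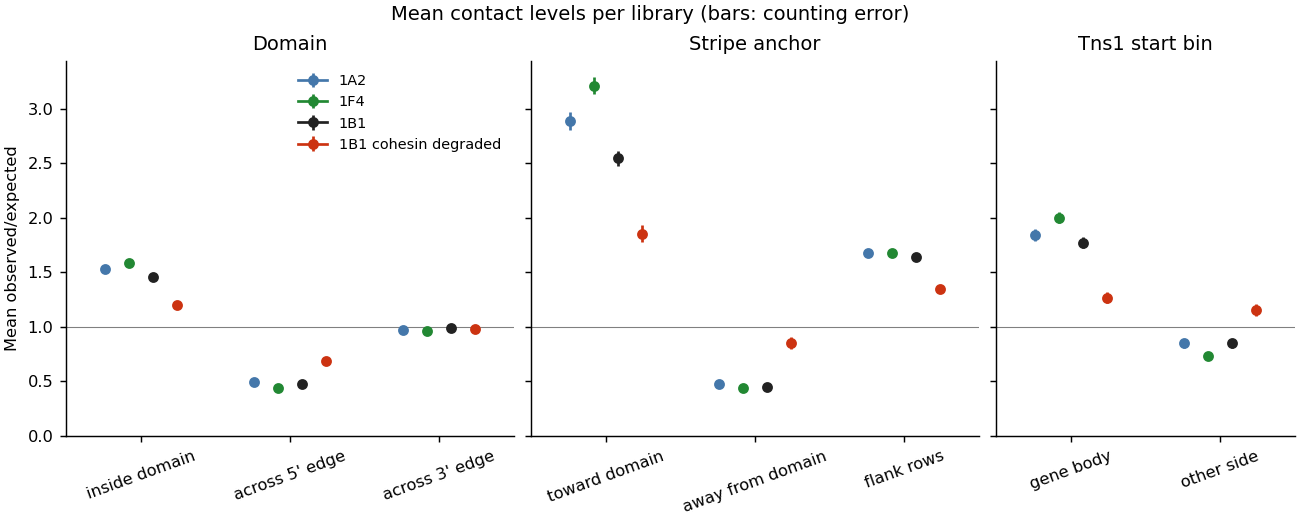
Mean observed over expected levels of the domain and across each edge (left), of the second and the third anchor bin in both directions and the downstream flank rows (middle), and of the Tns1 start bin with the gene body and at mirrored distances on the other side (right), with counting errors and 1 point for each library. The cohesin degraded library is lowest inside the domain (1.20) and for the anchor toward it (1.85), and highest across the 5′ edge (0.685) and for the anchor away from the domain (0.852).

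Counted over windows of 3 by 3 bins with at least 20 reads in both libraries, called where the levels differed by 1.5-fold or more, the background over the region was 6.05% lower and 9.07% higher after degradation than in 1B1, of 22853 windows. In the domain 113 of 975 windows (11.6%) were lower and 4 (0.410%) higher, with a median log2 ratio of -0.21 against 0.04 over all windows. In the stripe 28 of 114 windows were lower and 4 higher. Since the domain was chosen for its contact, and neighbouring windows share bin pairs, nothing is read from these shares.

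Fewer windows differed between the untreated lines. For 1B1 against 1A2 the background was 1.11% lower and 1.18% higher, and in the domain 16 of 989 windows were lower, every one of them on the stripe, which had 128 windows, and 1 was higher. Stripe windows that cover the first anchor bin rest in part on its 227 and 242 reads in 1A2 and 1B1, scaled up 22.4-fold in both. Nothing is therefore read from where the lower windows lie. For 1F4 against 1A2 the background was 1.59% and 0.678%, with 5 domain windows lower and 4 higher. For 1B1 against 1F4 it was 0.773% and 1.68%, with 14 lower and 1 higher. With all 3 anchor bins, which had values in the untreated lines, the stripe had 3.27 ± 0.16 in 1A2, 3.48 ± 0.13 in 1F4 and 2.68 ± 0.12 in 1B1. The log2 contrast of the stripe with the downstream rows differed by -0.26 ± 0.10 between 1B1 and 1A2 and by 0.08 ± 0.095 between 1F4 and 1A2. With the second and the third bin alone these differences were -0.15 ± 0.067 and 0.18 ± 0.064. Between 1B1 and 1F4 the contrast differed by -0.33 ± 0.063 with these bins, which is as large as the -0.24 ± 0.087 between the degraded library and 1B1. In this measure 1 of the 3 pairs of untreated clones thus differed by more than the degraded library and 1B1, and the other pairs by less. The inside to across ratio of the domain differed by -0.07 ± 0.028 between 1B1 and 1A2 and by 0.11 ± 0.028 between 1F4 and 1A2. Between 1B1 and 1F4 it differed by -0.18 ± 0.026, the most of the untreated pairs. At 30 of the 42 target bins of the stripe 1B1 was below 1A2, and at 28 of them 1F4 was above 1A2. The choice of untreated reference therefore moved the size of the difference to the degraded library, as 1B1, from which that library was made, had the weakest stripe of the untreated lines.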

How the data were processed

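Tiled Capture-C was performed on 4 libraries. Per the labels and the study's methods, the authors mapped reads with HiC-Pro (2.11.4 and build mm9 in the submitters' processing notes), binned them at 6.4 kb and balanced the maps by ICE; the deposited values are this balanced contact signal. The methods describe probes for chromosome 15, while the maps also cover the chromosome 1 region. All bin pairs on chromosome 1 could be turned back into whole reads (100% within 0.05 of a whole number), which gave depth and counting errors. From the balanced signal, observed over expected levels, insulation scores and ratios were computed with Python 3.11.15, numpy 2.4.6, scipy 1.17.1 and pandas 2.3.3, and drawn with matplotlib 3.10.9. The scripts were tested on simulated data. Gene positions are from GENCODE M1 and sequence from the mm9 genome. Named stripe targets were the 5 bins with the highest mean over the untreated lines and the 5 with the largest difference from 1B1 to the degraded library. The members and lists were chosen with earlier results of these data known. Errors are counting errors, for which reads were taken as independent molecules. Alternatives changed the scale, expected value, flanks, square, window threshold and reference line. Maps of chromosome 15 were not used. A further sequence of the domain, beyond those printed, is not reported here.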

Additional observations from a re-analysis of the deposited data

How the results depend on the processing

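With 1 library a group, the alternatives vary the processing and not the sample, and the first anchor bin is too shallow to weigh. No paired analysis was possible because each group has 1 library. Of 100 alternative values over 16 results, 16 (reads over expected reads, the third anchor bin alone, bins balanced in all libraries) were chosen after seeing the data. In all, 70 stayed within the 95% range of the counting error or, for counts, within 1.5 times, and 1 changed sign. That was the inside to across ratio of the domain, degraded against 1B1, which was 0.036 without division by the expected value, where separations are mixed. It was -0.40 from recovered reads before balancing, -0.39 as reads over expected reads, -0.53 with 1A2 as reference and -0.65 with 1F4. The contrast of stripe and downstream rows was -0.53 from recovered reads, -0.56 with rows outside the domain and -0.57 with 1F4 as reference. It was negative in all 11 alternatives, from -0.57 to -0.14. The insulation difference was 0.77 at the 5′ edge with 1F4 as reference. At the 3′ edge it was 0.46 with squares of 10 bins, 0.21 with 30 bins and 0.24 from recovered reads. The window of the anchor and the Tns1 start was -1.63 without division by the expected value and -1.55 with 1F4 as reference. That of the anchor and the 3′ edge was -1.33 without division, -1.26 from recovered reads and -1.28 with 1F4. Both windows were negative in all 9 alternatives, from -1.63 to -0.60 at the Tns1 start, where the third anchor bin alone gave the smallest size, and from -1.33 to -0.59 at the 3′ edge. The count of lower windows after degradation was 4 at 2-fold and 68 with single bin pairs, and that of higher ones 0 and 27. Single pairs are fewer, with 571 tested in place of 975, so that the share lower was about the same and the share higher larger. For 1B1 against 1A2 the lower count was 1 at 2-fold, 9 with a minimum of 50 reads and 28 with single pairs (of 760 in place of 989), and the higher count 0 at 2-fold and 17 with single pairs. For 1F4 against 1A2 the lower count was 2 at 2-fold and 20 with single pairs (of 784), and the higher count 0 and 21. The cause of these shifts was not tested.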
